A study of Mus musculus with 22 samples.

Results

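The genes described here set how long a neutrophil lives: Mcl1, Cflar and Birc3, which hold back cell death, Bcl2l11 and Pmaip1, which promote it, and Fas, a death receptor. The rule lists them by symbol, and 6 of the 8 listed genes were analysed, out of 16418 named genes in the series. Bcl2a1b and Bcl2a1d were not analysed here. Single cells of the terminal ileum were sequenced by CEL-Seq2, in which each transcript's 3' end carries a molecular tag so that copies are counted once. The cells were gated as CD45+H2kb+CD11b+Ly6G+, which should hold neutrophils that descend from the donor marrow. In 12 libraries, those with acute graft-versus-host disease (aGVHD), the cells came from BALB/c recipients, 7 to 9 weeks old, that received irradiation in 2 doses of 5 Gy, then 5000000 marrow cells plus 400000 T cells from C57BL/6 donors aged 7 to 10 weeks. The 10 control libraries came from recipients with the same irradiation and bone marrow and no donor T cells, so that the control group also carries an allogeneic transplant. Cells were taken at day 21. The labels do not say which mouse a library came from; the p-values therefore rest on differences among libraries, part of which may be technical.

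Neutrophils are short-lived cells whose death by apoptosis is held back by a few unstable proteins. Mcl1 and the Bcl2a1 proteins bind and block the BH3-only proteins, such as Bim (the product of Bcl2l11) and Noxa (the product of Pmaip1, which binds Mcl1 and speeds its loss), and so keep the effectors Bax and Bak from opening mitochondria. Fas starts the other route, through caspase 8, which the Cflar product c-FLIP blocks, while Birc3 encodes cIAP2, a ubiquitin ligase of TNF receptor signalling. In mice, neutrophils that lack Mcl1 are lost, and those that lack Bim live longer.

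The libraries held 1025 kept cells in the aGVHD group (74 to 95 per library) and 358 in the control group (11 to 60 per library), a kept cell being a barcode with at least 500 transcripts. A library's table summed to 215945 to 360054 transcripts in the aGVHD group and 45607 to 233719 in the control group. Clusters made without the listed genes and without the apoptosis pathway lists placed 618 cells in 6 neutrophil-like clusters (472 aGVHD, 146 control cells) and 111 in 1 macrophage/monocyte-like cluster (61 aGVHD, 50 control cells), although the sort was for Ly6G+ cells; 502 cells stayed unnamed. Among the unnamed, the 157 cells of cluster 2 had 12 neutrophil markers raised, with the eosinophil marker Siglecf among their 10 leading genes. The neutrophil-like share of a library's kept cells averaged 46.1% ± 15.8 in aGVHD (SD, n = 12) and 36.9% ± 9.99 in control libraries (SD, n = 10). The share of macrophage/monocyte-like cells was 5.92% ± 2.52 (SD, n = 12) in aGVHD libraries and 15.4% ± 4.21 (SD, n = 10) in control libraries.

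The 6 genes were measured at very different depths. Kept cells held 4117 transcripts of Mcl1, 1632 of Cflar, 1145 of Birc3, 798 of Bcl2l11, 559 of Pmaip1 and 177 of Fas. Mcl1 was seen in most neutrophil-like cells, with at least 1 transcript in 89.4% of the 472 aGVHD cells and in 84.9% of the 146 control cells; after thinning each cell to 500 transcripts the shares were 50.6% and 44.5%. Fas was at the limit of detection, with shares of 3.39% in aGVHD and 1.37% in control neutrophil-like cells after thinning. Levels below are CPM, a gene's transcripts scaled to a fixed total of named-gene transcripts in the summed cells of a library. One count stands for 1 transcript end, so levels are not divided by transcript length. In barcodes of the plate positions that held few transcripts, taken here as background, Mcl1 was at 748 CPM (95% Poisson interval 603 to 917, 92 transcripts) in aGVHD libraries and at 711 CPM (522 to 945, 47 transcripts) in control libraries, against 1935 and 1262 CPM in the pooled kept cells of those groups. Bcl2l11 was at 146 CPM (86.7 to 231) in the background of aGVHD libraries and at 121 CPM (52.2 to 238) in that of control libraries. The pooled kept cells of the control group, at 155 CPM, lay within the background interval. A background barcode held a median of 107 transcripts in aGVHD and 63 in control libraries. Background CPM are thus shares of small totals and do not decide detection in a cell.

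The start regions of the 2 genes that differed between the groups over all kept cells are given for context, as the 250 bases before the gene start, 5′ to 3′, from the RefSeq promoter table (GRCm38.p6). Mcl1 lies on chromosome 3 (chr3:95658471-95658720, plus strand) and Bcl2l11 on chromosome 2 (chr2:128125788-128126037, plus strand). GENCODE M21 has the same start for Bcl2l11 and one 67 bases further on for Mcl1. Capitals mark matches, on either strand, to GGG, any 2 bases and TTTCC (a kB-like word), to TTC, any 3 bases and GAA (a STAT-type word), or to GTAAACA (a FOXO-type word).
Mcl1: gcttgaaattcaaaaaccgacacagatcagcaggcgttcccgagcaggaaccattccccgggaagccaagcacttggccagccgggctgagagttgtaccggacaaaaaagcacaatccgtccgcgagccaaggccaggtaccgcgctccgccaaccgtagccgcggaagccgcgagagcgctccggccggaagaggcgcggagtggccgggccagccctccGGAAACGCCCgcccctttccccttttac
Bcl2l11: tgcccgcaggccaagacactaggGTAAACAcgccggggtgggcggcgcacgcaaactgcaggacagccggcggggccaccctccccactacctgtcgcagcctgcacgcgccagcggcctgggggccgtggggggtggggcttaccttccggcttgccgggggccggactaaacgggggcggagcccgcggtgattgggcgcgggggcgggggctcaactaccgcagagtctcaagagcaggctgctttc
Mcl1 held 1 kB-like word, starting at position -28 from the gene start, and Bcl2l11 held 1 FOXO-type word, starting at position -227. The kB-like word was found in 1.4% of the 27025 windows of this length, the FOXO-type word in 3.09% and the STAT-type word, absent from both windows shown, in 7.18%. The words are descriptions of these windows, and no binding was measured.

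Over all kept cells, 2 of the 6 genes were higher in aGVHD than in control libraries, one from each side of the balance: the survival gene Mcl1 and the BH3-only gene Bcl2l11. Cflar, Birc3, Pmaip1 and Fas did not pass the test. Sums per library were compared with limma (voom weights, title set as covariate, Benjamini-Hochberg adjustment over 2227 genes), in which 5.48% of all genes tested passed an adjusted p of 0.05, 3.64% higher and 1.84% lower in aGVHD. The members' count is 2 higher and 0 lower of 6 tested.

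Mcl1 ranged from 1292 to 2431 CPM in aGVHD libraries (median 1965, n = 12) and from 746 to 1720 CPM in control libraries (median 1169, n = 10). All 12 aGVHD libraries lay above the control mean and 9 of 12 above the highest control library, so the groups overlapped in 3 aGVHD libraries. The log2 fold change was 0.67 ± 0.15 (SE; limma adjusted p = 0.0131). Bcl2l11 ranged from 64.9 to 553 CPM in aGVHD libraries (median 433) and from 50.4 to 243 CPM in control libraries (median 145). Here 10 of 12 aGVHD libraries lay above the highest control library, while aGVHD replicates 1 (64.9 CPM) and 10 (179 CPM) lay among the controls. Its log2 fold change was 1.30 ± 0.36 (SE; limma adjusted p = 0.0340).

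The other members overlapped between the groups over most of their range. Cflar averaged 663 ± 198 CPM in aGVHD and 601 ± 218 CPM in control libraries (SD, n = 12 and 10), and its log2 fold change was 0.10 ± 0.22 (SE; limma adjusted p = 0.836). Birc3 averaged 502 ± 90.6 CPM in aGVHD and 509 ± 231 CPM in control libraries, and its log2 fold change was 0.15 ± 0.17 (SE; limma adjusted p = 0.669). The highest control library was passed by 1 of 12 aGVHD libraries for Cflar and by 0 for Birc3. Pmaip1 averaged 231 ± 55.6 CPM in aGVHD and 294 ± 204 CPM in control libraries (log2 fold change -0.095 ± 0.21 SE; limma adjusted p = 0.838). Its highest control value, 819 CPM, came from replicate 5, whose 12 cells held 7 Pmaip1 transcripts. Fas averaged 78.0 ± 29.7 CPM in aGVHD and 54.4 ± 54.2 CPM in control libraries, 3 of which were at 0, and its log2 fold change was 0.36 ± 0.28 (SE; limma adjusted p = 0.462).

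**Figure D1:**
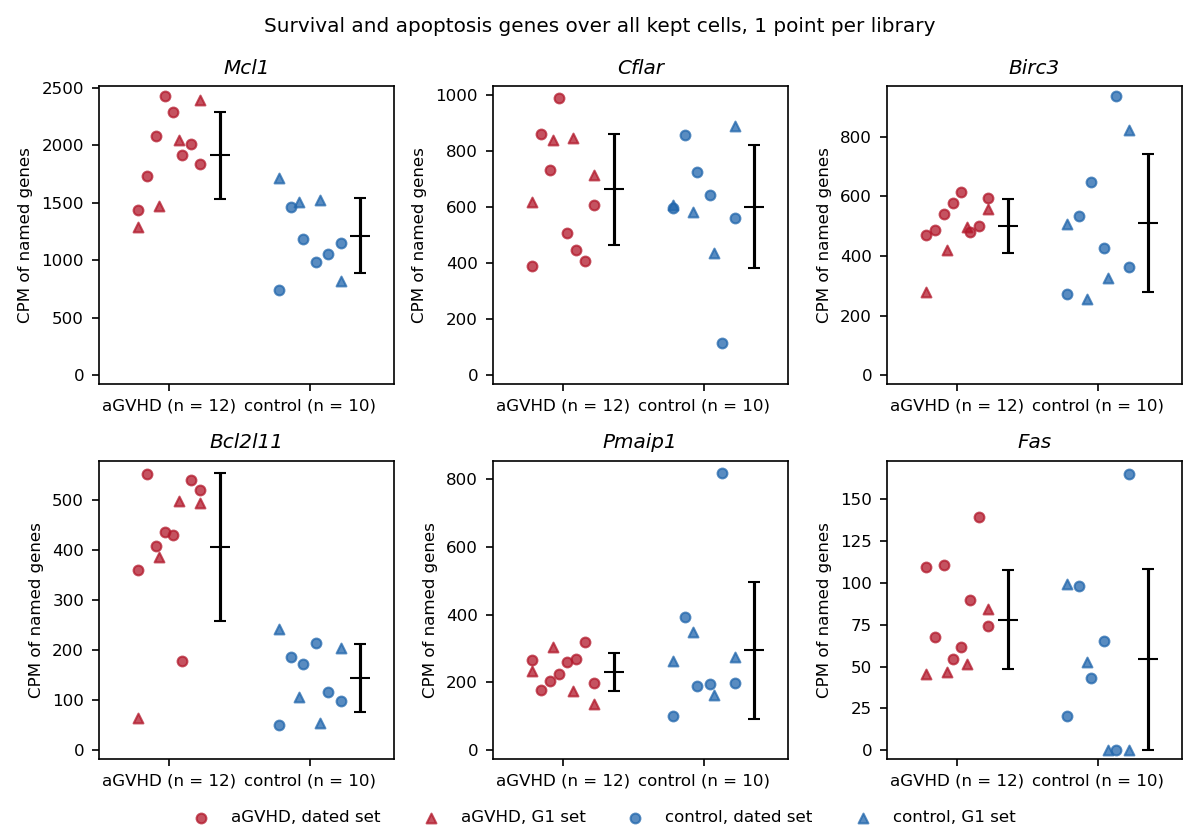
Level of each gene over all kept cells, in CPM of named genes (vertical axis), with 1 point per library, aGVHD libraries (n = 12) left of control libraries (n = 10), circles for the dated and triangles for the G1 title set, and bars for the mean ± SD. Mcl1 reached 1292 to 2431 CPM in aGVHD and 746 to 1720 CPM in control libraries, and Bcl2l11 64.9 to 553 and 50.4 to 243 CPM, while the other 4 genes overlapped widely.

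Cell type markers also differed between the groups over all kept cells, and their part in the results for Mcl1 and Bcl2l11 was not tested. All 34 neutrophil markers in the tables were detected in both groups. They summed to 40976 to 126075 CPM in aGVHD and 22790 to 47391 CPM in control libraries. Of the 28 tested, 15 were higher in aGVHD, none lower. Of 23 macrophage/monocyte markers 13 were tested and 0 passed in either direction (limma; 1 had an unadjusted p under 0.05). Fcrls was at 0 in control libraries, and the list summed to 2570 to 11995 CPM in aGVHD and 753 to 13489 CPM in control libraries. Markers of other cell types were in part lower in aGVHD: 2 of 4 dendritic cell markers tested (list sum 184 to 745 CPM in aGVHD and 391 to 2669 CPM in control libraries), 1 of 4 B or plasma cell markers (24.6 to 69971 and 159 to 69725 CPM) and 1 of 11 epithelial markers (554 to 14377 and 274 to 42085 CPM). In sums over a whole sort, a higher share of neutrophils and more transcript per neutrophil cannot be told apart. Within the title sets the log2 fold changes were 0.75 (dated; limma adjusted p = 0.0420) and 0.43 (G1; limma adjusted p = 0.693) for Mcl1, and 1.41 (dated; limma adjusted p = 0.0425) and 0.98 (G1; limma adjusted p = 0.683) for Bcl2l11. Leaving out macrophage/monocyte-like cells, a step added after the data were seen, gave log2 fold changes of 0.44 for Mcl1 (limma adjusted p = 0.157) and 1.28 for Bcl2l11 (limma adjusted p = 0.0746). Both calls were also lost with a quality filter on cells (0.43 and 1.04; limma adjusted p = 0.122 and 0.125), and the Bcl2l11 call was lost in 13 of the 22 fits that left out 1 library (1.03 to 1.34), namely aGVHD replicate 2, 3, 4, 6, 8, 9 or 11 or control replicate 1, 3, 4, 6, 8 or 9. The Mcl1 call held in all 22.

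Within the neutrophil-like cells, 0 of the 5 members tested passed the test between the groups (limma). Among them 2 had an unadjusted p under 0.05, Cflar (0.0322) and Pmaip1 (0.0392). This fit used the 18 libraries with at least 10 such cells (12 aGVHD, 6 control) and called 0.234% of 853 genes in either direction, 2 in all, while 97 had an unadjusted p under 0.05 (limma). Mcl1 ranged from 2156 to 3474 CPM in aGVHD (median 2727) and from 2062 to 3327 CPM in control libraries (median 2506), with 1 of 12 aGVHD libraries above the highest control library. The groups thus overlapped over nearly the whole range, and the log2 fold change was 0.11 ± 0.14 (SE; limma adjusted p = 0.822).

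Bcl2l11 did not pass the test either, although its levels were further apart. It ranged from 76.2 to 752 CPM in aGVHD (median 580) and from 133 to 366 CPM in control libraries (median 251), and 10 of 12 aGVHD libraries lay above the highest control library, with replicate 1 below the lowest. The log2 fold change was 0.90 ± 0.50 (SE; limma adjusted p = 0.522). After thinning to 500 transcripts, 14.9% ± 6.56 of neutrophil-like cells per aGVHD library (SD, n = 12) and 4.63% ± 4.03 per control library (SD, n = 6) held a Bcl2l11 transcript. In the macrophage/monocyte-like cells, pooled over libraries, the thinned shares were 4.92% of 61 aGVHD cells and 0 of 50 control cells (exact 95% upper bound 7.11%, counting error only). Unthinned, 37 of those 61 aGVHD and 18 of those 50 control cells held a Bcl2l11 transcript. Pooled Bcl2l11 in this class was at 290 CPM (95% Poisson interval 236 to 353) in aGVHD and 152 CPM (107 to 208) in control cells. The background intervals were 86.7 to 231 CPM in aGVHD and 52.2 to 238 CPM in control libraries. Background CPM are shares of small totals, so these intervals do not decide detection in the control cells. Those 50 control cells held 38 Bcl2l11 transcripts, and 960 control background barcodes held 8. Median depth was 7456 (aGVHD) and 5158.5 (control) transcripts in macrophage/monocyte-like cells, against 2315.5 and 1993.5 in neutrophil-like cells.

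Cflar, Pmaip1 and Birc3 had lower means in aGVHD neutrophil-like cells, and none of the 3 passed the test. Cflar averaged 652 ± 322 CPM in aGVHD and 1021 ± 175 CPM in control libraries (SD, n = 12 and 6), and 8 of 12 aGVHD libraries lay below the lowest control library. Its log2 fold change was -0.64 ± 0.28 (SE; limma adjusted p = 0.437). The thinned shares of cells with a Cflar transcript were closer, at 17.1% ± 12.9 in aGVHD and 19.3% ± 7.24 in control libraries. Pmaip1 averaged 257 ± 98.8 CPM in aGVHD and 356 ± 147 CPM in control libraries (log2 fold change -0.59 ± 0.27 SE; limma adjusted p = 0.437). Birc3 averaged 673 ± 91.9 CPM in aGVHD and 893 ± 331 CPM in control libraries (log2 fold change -0.28 ± 0.19 SE; limma adjusted p = 0.602). Fas was below the low-count filter and was not tested; it averaged 133 ± 71.7 CPM in aGVHD and 156 ± 74.9 CPM in control libraries. Macrophage/monocyte markers summed to 1472 to 3365 CPM in the aGVHD and to 1507 to 2735 CPM in the control sums of this class.

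**Figure D2:**
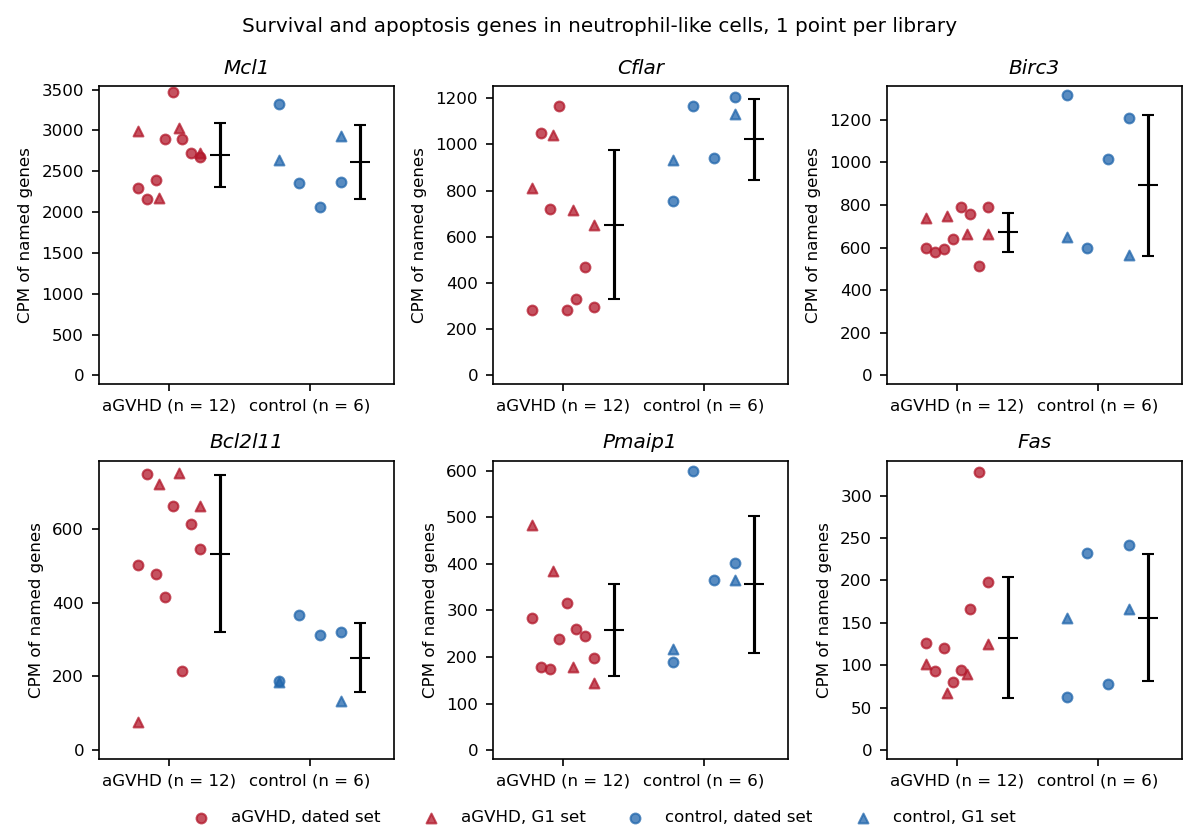
Level of each gene in neutrophil-like cells, in CPM of named genes (vertical axis), with 1 point per library holding at least 10 such cells, aGVHD (n = 12) left of control (n = 6), circles for the dated and triangles for the G1 title set, and bars for the mean ± SD. Mcl1 levels overlapped between the groups, 10 of 12 aGVHD libraries had more Bcl2l11 than any control library, and 8 of 12 had less Cflar.

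Set against the macrophage/monocyte-like cells of the same libraries, neutrophil-like cells had more Mcl1, Birc3 and Bcl2l11. The comparison used 13 libraries (7 aGVHD, 6 control) with at least 5 cells of each class and the library as a block; 3 of 5 members tested were higher and 0 lower. Of 1187 genes, 64.6% passed, 31.3% higher and 33.4% lower in neutrophil-like cells. The listed genes took no part in the clustering, but genes correlated with them did, so the comparison holds for the classes as clustered.

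Mcl1 averaged 2686 ± 364 CPM in neutrophil-like and 1130 ± 392 CPM in macrophage/monocyte-like cells (SD, n = 13), and neutrophil-like cells were higher in 13 of 13 libraries. The lowest neutrophil-like value, 2062 CPM, lay above the highest macrophage/monocyte-like value, 1838 CPM, so the classes did not overlap. The log2 fold change was 1.08 ± 0.16 (SE; limma adjusted p = 6.35e-07). Birc3 averaged 787 ± 246 CPM in neutrophil-like and 329 ± 152 CPM in macrophage/monocyte-like cells and was higher in 13 of 13 libraries (log2 fold change 0.98 ± 0.20 SE; limma adjusted p = 5.82e-05). Mcl1 and Birc3 kept their calls under each alternative that gave a value for this comparison.

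Bcl2l11 averaged 392 ± 238 CPM in neutrophil-like and 244 ± 201 CPM in macrophage/monocyte-like cells and was higher in 11 of 13 libraries (log2 fold change 0.60 ± 0.25 SE; limma adjusted p = 0.0346). With the quality filter on cells, which left 14 sums in place of 26, the log2 fold change was 0.017 (limma adjusted p = 0.971). Leaving out aGVHD replicate 2, 4, 10 or 12 ended the call (0.41 to 0.58). Cflar averaged 804 ± 305 CPM in neutrophil-like and 523 ± 243 CPM in macrophage/monocyte-like cells and was higher in 8 of 13 libraries (log2 fold change 0.45 ± 0.21 SE; limma adjusted p = 0.0563). It passed the test under 5 of 10 alternatives, among them upper quartile scaling (0.57; limma adjusted p = 0.0172) and library totals alone (0.62; limma adjusted p = 0.0118). It also passed without aGVHD replicate 3, 10 or 11 or control replicate 1 (0.54 to 0.82). Pmaip1 averaged 310 ± 136 CPM in neutrophil-like and 204 ± 108 CPM in macrophage/monocyte-like cells (log2 fold change 0.35 ± 0.24 SE; limma adjusted p = 0.191), and passed with library totals alone (0.53; limma adjusted p = 0.0457) and without aGVHD replicate 3 or 11 (0.67 and 0.62; limma adjusted p = 0.0179 and 0.0281). Fas was not tested; it averaged 155 ± 79.3 CPM in neutrophil-like and 25.1 ± 30.6 CPM in macrophage/monocyte-like cells, was higher in 12 of 13 libraries, and rested on 12 transcripts in the macrophage/monocyte-like sums.

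In macrophage/monocyte-like cells Mcl1 averaged 1354 ± 331 CPM in 7 aGVHD libraries and 869 ± 293 CPM in 6 control libraries, and in neutrophil-like cells of the same libraries 2746 ± 289 and 2615 ± 455 CPM. Whether the effect of aGVHD differs between the classes was not tested. Across the other cells, pooled over libraries, Mcl1 stood at 1997 CPM in the unnamed cells of the aGVHD group and at 1797 CPM in those of the control group. The unnamed cells include the 157 of cluster 2, which had 12 neutrophil markers raised. Mcl1 was at 706 CPM (95% Poisson interval 480 to 1002) in the 27 B or plasma cell-like cells and at 485 (380 to 609) and 286 CPM (223 to 362) in clusters 8 and 14, which carried epithelial markers. From high to low, pooled Mcl1 thus ran from neutrophil-like through unnamed and macrophage/monocyte-like to the cells with plasma cell and then epithelial markers. The plasma cell and epithelial values lay within or below the Mcl1 background intervals (603 to 917 CPM in aGVHD and 522 to 945 CPM in control libraries). Control macrophage/monocyte-like cells, pooled at 903 CPM, lay within the control interval. These intervals are shares of small background totals, so they do not decide whether Mcl1 was detected in these cells. Control background held 47 Mcl1 transcripts in 960 barcodes, and the 50 control macrophage/monocyte-like cells held 226. The intervals of the B or plasma cell-like cells and of cluster 8 overlapped. The place of the B or plasma cell-like cells rests on 1 library, which gave 91.7% of their aGVHD Mcl1 transcripts (864 CPM), while their control cells, from 1 library, stood at 434 CPM. Pooled Cflar departed from the Mcl1 order in the aGVHD group. There clusters 8 and 14 together stood at 776 CPM (660 to 907), above macrophage/monocyte-like cells at 539 CPM (464 to 622). Neutrophil-like cells of the aGVHD group, at 731 CPM (671 to 796), overlapped clusters 8 and 14. In the control group pooled Cflar was highest in neutrophil-like cells, as Mcl1 was, at 1010 CPM (870 to 1165). That interval overlapped those of the unnamed and the B or plasma cell-like control cells.

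**Figure D3:**
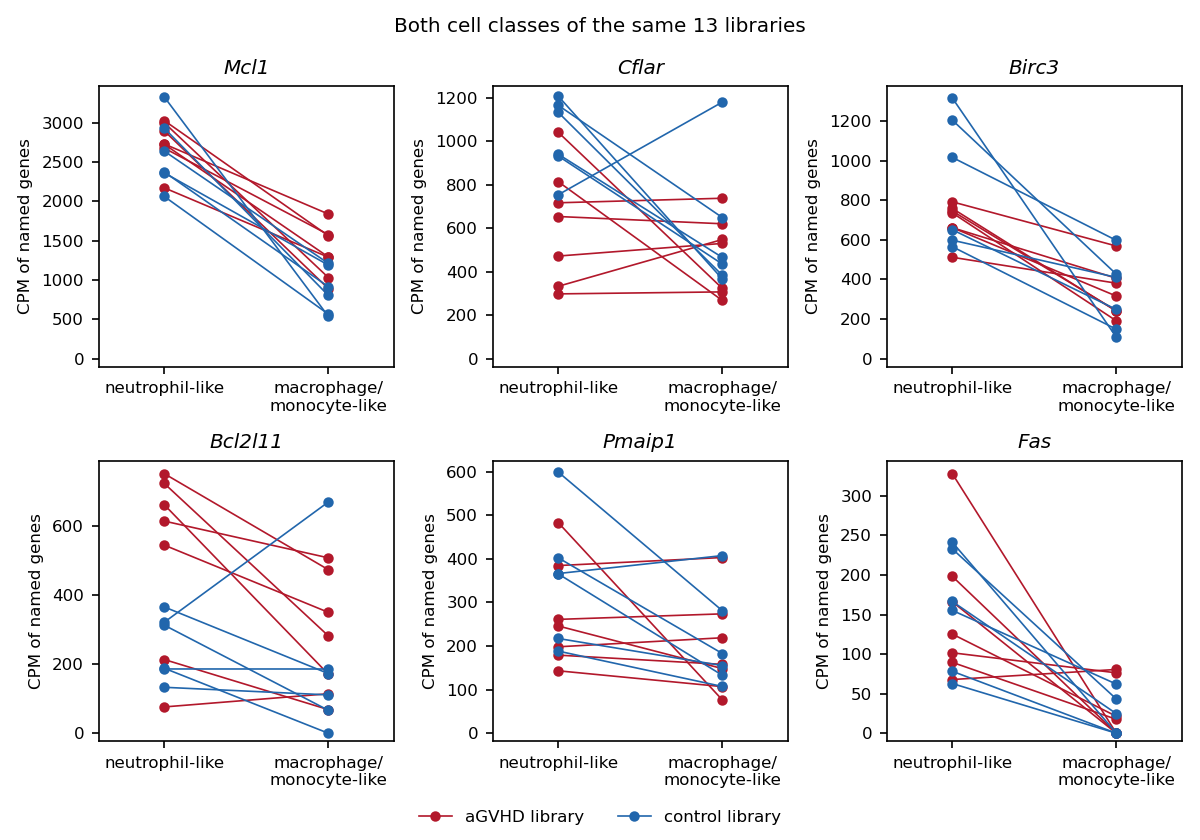
Level of each gene in CPM of named genes (vertical axis) in the neutrophil-like and macrophage/monocyte-like cells of the same library, joined by a line, for 7 aGVHD and 6 control libraries. Mcl1 and Birc3 were higher in neutrophil-like cells in 13 of 13 libraries, Fas in 12, Bcl2l11 in 11 and Cflar in 8.

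**Figure D4:**
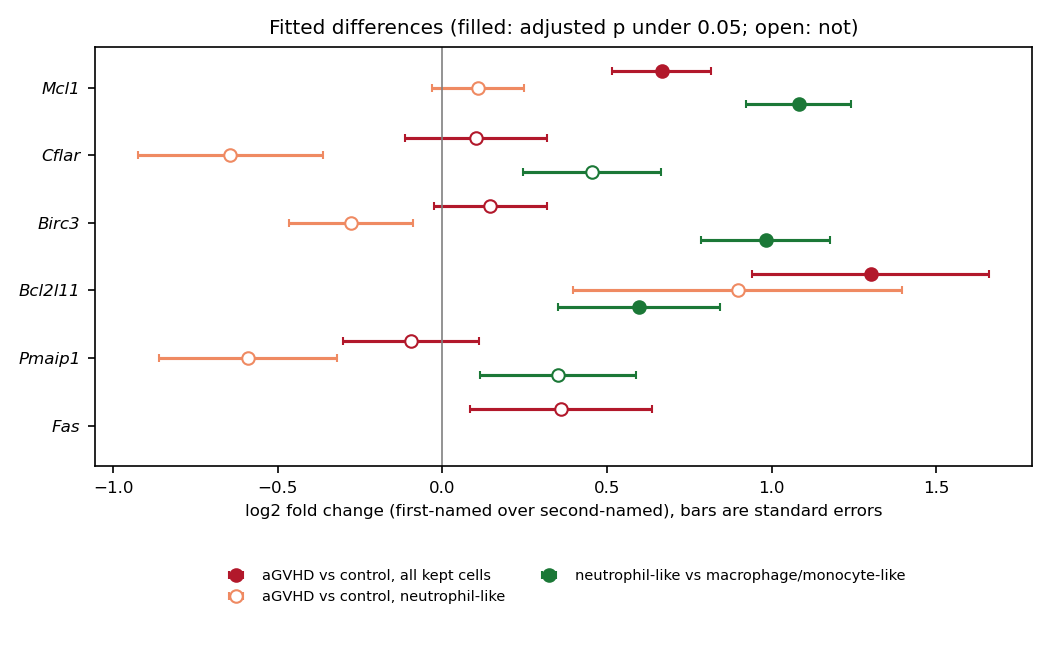
Fitted log2 fold change of each gene (horizontal axis, first-named group over second-named, bars are SE) in 3 comparisons, filled where the limma adjusted p was under 0.05. Mcl1 stood at 0.67 over all kept cells and 0.11 in neutrophil-like cells, Bcl2l11 at 1.30 and 0.90, and Mcl1, Birc3 and Bcl2l11 at 1.08, 0.98 and 0.60 for neutrophil-like over macrophage/monocyte-like cells.

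Levels varied among the 6 neutrophil-like clusters, given here as pooled values with 95% Poisson intervals, which cover counting error only, and with no test. Cluster 10, led by granule genes such as Ngp, Camp and Ltf (67 aGVHD and 2 control cells), had the lowest Pmaip1, at 75.8 CPM (42.4 to 125), against 241 to 403 CPM in the other 5 clusters. It also had the lowest Mcl1, at 2046 CPM (1851 to 2255), against 2571 to 2968 CPM elsewhere; 43.2% of its Mcl1 transcripts came from 1 library. Its Bcl2l11, at 591 CPM (489 to 708), was among the highest.

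Cluster 12, led by the interferon-induced chemokine genes Cxcl10 and Cxcl9 (23 aGVHD and 13 control cells), had the most Fas, at 316 CPM (184 to 506), against 70.2 to 160 CPM in the other clusters, and the most Cflar, at 1263 CPM (981 to 1601), against 642 to 866 CPM. These values rest on 17 Fas and 68 Cflar transcripts in 36 cells, with 35.3% and 22.1% of them from 1 library. In means over libraries with at least 5 cells of a cluster, Fas was at 201 ± 63.0 CPM in cluster 12 (SD, n = 2) and at 185 ± 134 CPM in cluster 4 (SD, n = 13), so the gap lay within the spread. Cflar was at 1631 ± 570 CPM in cluster 12, against 680 to 869 CPM in the other clusters. Cluster 5, led by the immediate-early genes G0s2, Gadd45b and Egr1 (87 aGVHD and 41 control cells), had the most Mcl1, at 2968 CPM (2714 to 3241), and the most Birc3, at 946 CPM (805 to 1105). Birc3 was lowest in cluster 10, at 515 CPM, a value inside the intervals of cluster 4 (487 to 694) and cluster 12 (391 to 817). In means over libraries with at least 5 cells of a cluster it was not lowest there, at 660 ± 321 CPM (SD, n = 4), against 554 ± 251 CPM in cluster 4 (SD, n = 13) and 514 ± 380 CPM in cluster 12 (SD, n = 2). Bcl2l11 was lowest in cluster 3, led by Lsmem1 and Ppbp (108 aGVHD and 40 control cells), at 313 CPM (226 to 424), with clusters 9 and 12 (383 and 353 CPM) inside that interval. Over libraries with at least 5 cells, cluster 3 was again lowest, at 265 ± 269 CPM (SD, n = 14), but cluster 12 stood highest, at 759 ± 32.4 CPM in its 2 libraries.

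**Figure D5:**
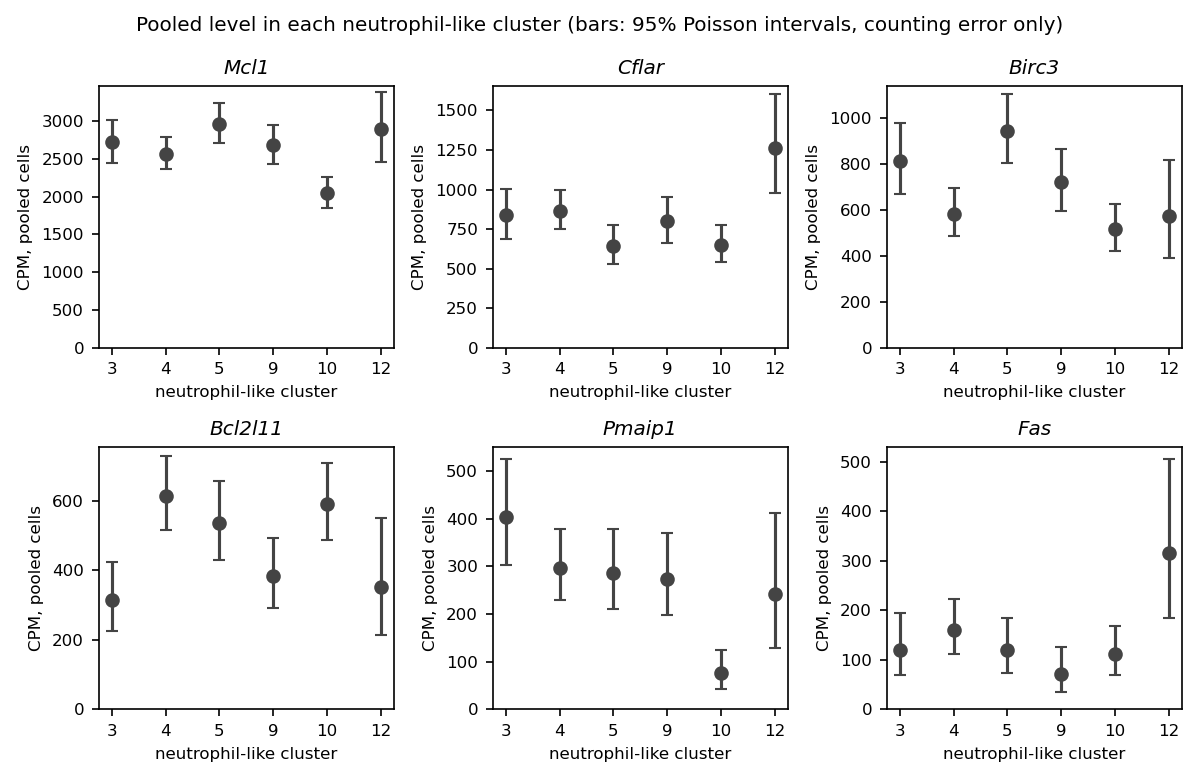
Pooled level of each gene in the 6 neutrophil-like clusters (horizontal axis, cluster number; vertical axis, CPM of named genes), with 95% Poisson intervals that cover counting error only. Pmaip1 was lowest in cluster 10 (75.8 CPM), and pooled Fas and Cflar were highest in cluster 12 (316 and 1263 CPM), Fas on 17 transcripts.

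The study's title names lipocalin-2 (Lcn2), a granule protein that binds bacterial iron carriers. In 7 aGVHD libraries with at least 5 neutrophil-like cells of each status, 104 cells with and 211 cells without an Lcn2 transcript were compared after thinning to 500 transcripts, with the library as a block. This fit called 17.7% of 226 genes other than Lcn2, 9.29% higher and 8.41% lower in Lcn2-positive cells, and 0 of the 1 member tested. Mcl1, the only member above the low-count filter, averaged 2866 ± 985 CPM in Lcn2-positive and 3054 ± 616 CPM in Lcn2-negative sums (SD, n = 7), and its log2 fold change was -0.13 ± 0.20 (SE; limma adjusted p = 0.697). The other members had 4 to 52 transcripts per status and were not tested. Bcl2l11 was at 653 CPM (95% Poisson interval 418 to 971, 24 transcripts) in Lcn2-positive and 307 CPM (187 to 474, 20 transcripts) in Lcn2-negative cells, and Pmaip1 at 109 CPM (29.6 to 278, 4 transcripts) and 261 CPM (152 to 418, 17 transcripts). Over libraries Bcl2l11 averaged 680 ± 715 CPM in Lcn2-positive and 310 ± 215 CPM in Lcn2-negative sums (SD, n = 7). Cflar, Birc3 and Fas were at 680, 598 and 136 CPM in Lcn2-positive and 798, 706 and 184 CPM in Lcn2-negative cells. The intervals of both statuses overlapped for each of these 5 genes. Part of the Lcn2-positive cells belonged to cluster 10. Without that cluster, aGVHD replicates 4, 6 and 7 held 16, 12 and 10 Lcn2-positive cells, in place of 21, 25 and 30. Replicates 1 and 3 held 7 and 10, in place of 7 and 11. The part of cluster 10 in these values was not tested.

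Of the 77 other apoptosis and survival genes in 9 lists, 29 were tested over all kept cells, and 4 were higher and 0 lower in aGVHD. Of all 2227 genes in this fit, 3.64% were called higher and 1.84% lower. The median log2 fold change of the 29 was 0.12, against 0.043 over all genes. The 4 were Ier3, an immediate-early survival gene, at 1.30 ± 0.34 (limma adjusted p = 0.0246), Tnf, the ligand of the TNF receptors, at 1.25 ± 0.35 (limma adjusted p = 0.0340), Gadd45a, a stress-induced gene, at 1.11 ± 0.33 (limma adjusted p = 0.0489), and Csf3r, the G-CSF receptor and itself a neutrophil marker, at 0.56 ± 0.15 (limma adjusted p = 0.0332). All 4 lost the call without macrophage/monocyte-like cells (0.32 to 0.88) and with the quality filter (0.26 to 1.01). They also lost it in each title set alone. Of the 15 alternatives other than leaving out 1 library, 7 ended the call for Ier3, 8 for Tnf, 8 for Csf3r and 11 for Gadd45a. In pooled control cells Ier3, Tnf and Gadd45a were at 410, 446 and 112 CPM. These values lay within the 95% intervals of the control background (319 to 665, 185 to 467 and 33.3 to 197 CPM). Background CPM are shares of small totals, so this does not decide detection in those cells. Leaving out 1 library ended the Ier3 call in 4 of 22 fits (aGVHD replicate 4 or control replicate 1, 3 or 4; 1.15 to 1.24), the Tnf call in 10, the Csf3r call in 13 and the Gadd45a call in 18. In neutrophil-like cells 16 list genes were tested and 0 passed in either direction (limma; 4 had an unadjusted p under 0.05), with a median of -0.16, against -0.0056 over all genes. Of all 853 genes in that fit, 0.234% passed.

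The survival signalling list was the most abundant. Pim1, a survival kinase induced by cytokine receptors, averaged 5403 ± 948 CPM in aGVHD and 4617 ± 1314 CPM in control libraries (SD, n = 12 and 10). Csf3r averaged 1763 ± 520 and 1207 ± 515 CPM. Gadd45b averaged 1144 ± 458 CPM in aGVHD and 1180 ± 502 CPM in control libraries. In the list of TNF family receptors and ligands, Tnf averaged 997 ± 548 CPM in aGVHD and 418 ± 206 CPM in control libraries, Tnfrsf1b 488 ± 269 and 335 ± 157 CPM, and Tnfrsf1a 323 ± 70.7 and 219 ± 75.6 CPM. Of the list on Mcl1 turnover, Txnip, which was grouped there, averaged 791 ± 343 CPM in aGVHD and 433 ± 206 CPM in control libraries (log2 fold change 0.81 ± 0.25 SE; limma adjusted p = 0.0519), Tmbim6 639 ± 123 and 617 ± 177 CPM, and Cdk9, a kinase of transcript elongation, 110 ± 31.3 and 99.1 ± 85.9 CPM.

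Genes of the mitochondrial step itself were sparse. The effectors Bax and Bak1 averaged 61.1 ± 20.5 and 51.5 ± 17.8 CPM in aGVHD libraries and 69.6 ± 43.9 and 31.5 ± 25.5 CPM in control libraries, and Bok had 3 transcripts in all; none of the 3 was tested. Bcl2l1 and Bcl2, relatives of Mcl1, averaged 76.7 ± 41.1 and 26.8 ± 17.4 CPM in aGVHD and 35.1 ± 38.5 and 60.9 ± 45.3 CPM in control libraries. Bcl2a1a, the relative of the 2 genes not analysed here, averaged 152 ± 82.9 CPM in aGVHD and 280 ± 240 CPM in control libraries, and its log2 fold change was -0.52 ± 0.27 (SE; limma adjusted p = 0.244), or -1.13 ± 0.46 within neutrophil-like cells (SE; limma adjusted p = 0.424). In GENCODE M21 the longest Bcl2a1a transcript is 98.2% identical to that of Bcl2a1b and 98.8% to that of Bcl2a1d over the aligned bases, so counts of this family are uncertain. Cycs, which encodes cytochrome c, averaged 218 ± 110 CPM in aGVHD and 256 ± 131 CPM in control libraries, Dffa 95.1 ± 66.4 and 112 ± 108 CPM, and the apoptosome gene Apaf1 72.5 ± 20.2 and 42.8 ± 28.9 CPM. Bnip3l, Bnip3 and Bid led the BH3-only list at 164 ± 37.3, 64.6 ± 19.8 and 22.3 ± 12.7 CPM in aGVHD and 176 ± 92.2, 35.5 ± 23.5 and 8.43 ± 10.3 CPM in control libraries.

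The adaptors Traf1, Casp8 and Ripk1 averaged 168 ± 59.5, 105 ± 43.9 and 55.5 ± 19.7 CPM in aGVHD and 162 ± 79.2, 93.9 ± 50.1 and 49.5 ± 44.0 CPM in control libraries. Among inhibitors of apoptosis, Naip2, Birc6 and Xiap averaged 93.1 ± 45.0, 71.7 ± 33.9 and 79.4 ± 32.5 CPM in aGVHD and 71.7 ± 46.4, 82.2 ± 56.8 and 58.6 ± 36.9 CPM in control libraries.

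Between the classes, 17 list genes were tested, of which 12 were higher and 1 lower in neutrophil-like cells. Of all 1187 genes in this fit, 31.3% were called higher and 33.4% lower. The median log2 fold change of the 17 was 1.04, against 0.048 over all genes. The 10 largest were Csf3r at 2.02 ± 0.19, which also served as a marker, Txnip at 1.84 ± 0.23, Gadd45a at 1.56 ± 0.40, Gadd45b at 1.51 ± 0.22, the TNF relative Ltb at 1.5 ± 0.32, Pim1 at 1.41 ± 0.14, Tnfrsf1b at 1.18 ± 0.23, Tnf at 1.07 ± 0.24 and Tnfrsf1a at 1.04 ± 0.23 on the higher side, and Pim3 at -1.49 ± 0.33 on the lower (SE; limma adjusted p from 1.20e-10 to 0.00104). Tnf lost the call with the quality filter (0.80, limma adjusted p = 0.0744) and at a coarser clustering (0.37, limma adjusted p = 0.219). Tnfrsf1a lost it with the quality filter (0.57, limma adjusted p = 0.183), which left 14 sums in place of 26. By Lcn2 status, 9.29% of 226 genes other than Lcn2 were called higher and 8.41% lower in Lcn2-positive cells. Of 8 list genes tested, 0 were higher and 2 lower: Tnf at -1.58 ± 0.38 (limma adjusted p = 0.00530) and Gadd45b at -1.45 ± 0.38 (limma adjusted p = 0.00757). Without cluster 10 they stood at -0.32 and -0.93 (limma adjusted p = 0.782 and 0.434). That fit had 10 sums in place of 14, since aGVHD replicates 8 and 11 dropped out. Both calls were also lost at a finer clustering (-0.85 and -0.50; limma adjusted p = 0.148 and 0.338). A coarser clustering ended the Tnf call (-0.55; limma adjusted p = 0.277), and a minimum of 1000 transcripts the Gadd45b call (-0.81; limma adjusted p = 0.0822). The Tnf call was lost without aGVHD replicate 7 (-1.07; limma adjusted p = 0.109).

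The genes most like Mcl1 across the 22 libraries, after group and title set were removed, were Csf2rb, the shared receptor chain for GM-CSF, IL-3 and IL-5 (r = 0.84), Pkm, a glycolytic enzyme (r = 0.81), and Ftl1, a ferritin chain (r = 0.75), among 1563 genes with a mean of at least 100 CPM. Of the members, Bcl2l11 ranked 351 with r = 0.35, Cflar 536 with r = 0.25, Birc3 979 with r = -0.060 and Pmaip1 1207 with r = -0.22. These values describe libraries that share depth and cell composition, and no test was made of them.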

How the data were processed

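Per the labels, 12 aGVHD and 10 control libraries were made by CEL-Seq2. Per the submitters' processing notes, the tools were BWA 0.6.2-r126 and bcl2fastq 2.17.1.14. No genome build was given in the sources used here. The deposited values are estimated transcript counts for each gene in each barcode, without depth scaling, and each of the 1419098 values above 0 equals the expected number of molecules for a whole number of 4096 identifiers (tolerance 1e-06). They were rounded to whole transcripts.

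Barcodes with at least 500 transcripts (1383 of 4224) were kept. Unnamed gene models, 50.4% of kept transcripts, were left out of library totals. Cells were clustered on Pearson residuals of 200 marker and state genes (12 components, 15 neighbours, Leiden resolution 1.0; leidenalg 0.10.2, igraph 0.11.9), without the listed genes and pathway lists. A class needed at least 3 markers raised 1.5-fold, more than any other class, and no other class with more markers among the 10 leading genes. Doublets were not called; as an alternative, 96 cells whose total passed 4 times the median of their library or whose Kcnq1ot1 share passed 2% were dropped.

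Sums were tested with limma 3.58.1 (R 4.3.3), log2 CPM with voom weights, trimmed-mean scaling (0.3 and 0.05), a minimum of 10 transcripts at the median depth and of 15 over all sums, with adjusted p (Benjamini-Hochberg) called at 0.05. No count model was fitted. The tests between groups had the title set (dated or G1) as covariate. The tests were also run on simulated counts, with the same spread for every gene and no library differences other than depth. That setting is simpler than these data, and no result here rests on it.

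The members and gene lists were chosen with earlier results of these data known. Genes named beside the members were list genes past an adjusted p of 0.05 (up to 10 per comparison), the 3 most abundant of each list, and the 3 most like Mcl1; the likeness planned for Bcl2a1b or Bcl2a1d was not made. Cluster leaders are named to identify clusters. Intervals (95%) are exact and cover counting error only. Alternatives covered cell minimums, scaling, filters, title sets, clustering and leaving out each library. No overlapping gene lies on the other strand of the 6 genes in GENCODE M21; 1, Gm27818, overlaps Fas on its own strand.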

Additional observations from a re-analysis of the deposited data

Results flagged for a closer look

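Of the member levels in groups of 6 to 10 libraries, 3 held a library that stood apart from the others by Dixon's test at its 95% value, which chance meets in about 1 of 20 groups; 24 groups were looked at. Pmaip1 over all kept cells was at 819 CPM in control replicate 5, on 7 transcripts in 12 cells, against 392 CPM in the next control library. Bcl2l11 in macrophage/monocyte-like cells was at 670 CPM in control replicate 4, on 11 transcripts in 5 cells, against 186 CPM in the next. Cflar in macrophage/monocyte-like cells was at 1179 CPM in control replicate 1, on 11 transcripts in 6 cells, against 648 CPM in the next.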

How the results depend on the processing

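Over all kept cells the count of 122 genes called was 1916 with no low-count filter, 39 in the dated set alone, 9 in the G1 set alone, 6 with the quality filter, 3 in libraries with at least 20 cells, 20 without macrophage/monocyte-like cells and 55 to 183 without 1 library (55 to 78 without aGVHD replicate 4 or 8 or control replicate 1, 4, 8 or 9). The replicate block over the dated libraries whose numbers both groups have gave 45, and the same libraries without the block gave 6; Mcl1 stood at 0.80 with the block (limma adjusted p = 0.0789) and Bcl2l11 at 1.36. Same-numbered dated libraries correlated at r = -0.076 to 0.19 over 6 numbers, above 0.1 in 4, and 1 of 6 correlated best with its own number. Since not every pair was above 0.1, the numbers were not taken to pair samples, though these values do not exclude pairing. Mcl1 also lost its call in the G1 set alone (0.43) and with at least 20 cells per library (0.53), as did Bcl2l11 (0.98 and 1.21), which stood at 1.03 to 1.48 without 1 library.

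In neutrophil-like cells the count of 2 was 1 at a minimum of 250 transcripts and 6 at 1000, 5 with no filter, 0 in the dated and in the G1 set alone, 1 without the covariate, 11 with the replicate block and 0 in the same libraries without it, 0 at Leiden resolution 0.5, 0 with cluster 2 added and 2 to 3 without 1 library. Between classes the count of 767 was 1704 with no filter, 372 with the quality filter (14 sums in place of 26) and 709 to 818 without 1 library. Resolution 2.0 gave no value. By Lcn2 status the count of 40 was 17 at a minimum of 1000, 1515 with no filter, 20 at resolution 2.0 and 103 without thinning. It was 1 without cluster 10, where the fit had 10 sums in place of 14. Without 1 library it was 21 to 47 (26 and 21 without aGVHD replicate 4 and 7). Leaving out cluster 10 or macrophage/monocyte-like cells and adding cluster 2 were chosen after seeing the data. The causes were not tested.

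Reversed signs, none of them past the threshold, were as follows. Over all kept cells, Cflar was at -0.19 (dated set), -0.012 (no covariate), -0.052 and -0.12 (with and without the block), -0.17 (quality filter), -0.13 (at least 20 cells), -0.17 (without macrophage/monocyte-like cells) and -0.028 to 0.17 without 1 library; Birc3 at -0.072 (quality filter) and -0.0051 to 0.20 without 1 library; Pmaip1 at 0.11 (no filter), 0.060 (dated set) and -0.31 to 0.014 without 1 library. In neutrophil-like cells Mcl1 was at -0.0067 (minimum of 250), -0.013 (G1 set) and -0.043 (resolution 0.5), and Birc3 at 0.20 (G1 set). Between classes Bcl2a1a was at 0.11 (upper quartile), 0.16 (library total), 0.25 (no filter), 0.0099 (all rows), 0.68 (quality filter), 0.029 (at least 3 cells) and -0.23 to 0.31 without 1 library.

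Of all alternative values of named genes, 863 kept direction and call, 118 lost the call, 12 gained it and 31 changed sign. Depth limits Fas and, in control libraries of 11 or 12 cells, every member.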
